A study of Homo sapiens with 8 samples.

Results

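The 10 genes described here, PER1, TSC22D3, ZBTB16, SGK1, KLF9, DUSP1, CEBPD, BCL6, CRISPLD2 and SERPINA3, are textbook glucocorticoid-induced genes, and they were followed in androgen-treated breast cancer cells. They were chosen by symbol as a list of 10. The level of each gene came from 1 probe set, the brightest on average of those annotated to that symbol alone. This rule gave levels for 19775 genes on the array. By that rule 9 of the 10 genes were measured, with 21 probe sets between them, and PER1 was not, because its 4 probe sets are annotated both to PER1 and to MIR6883. The cells were MDA-MB-453, an established human breast cancer line of the molecular apocrine kind that is commonly used to study androgen responses. All 8 cultures were first held for 3 days without phenol red and in 5% serum treated with charcoal/dextran, which removes most steroids. They then received 10 nM DHT (5-alpha-dihydrotestosterone, the most potent natural androgen) for 4, 16 or 48 h, or vehicle, with 2 arrays in each of the 4 groups. The labels call the arrays biological replicates of 1 cell line without saying what was separate, so p-values measure the spread between these arrays. The vehicle arrays carry no time, so an effect of DHT and one of time in culture cannot be told apart. No glucocorticoid was given, and the name of the list rests on outside knowledge, not on these arrays.

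The glucocorticoid receptor is a steroid-activated transcription factor of the nuclear receptor family. It binds DNA as a dimer at hormone response elements made of a pair of 6-base half-sites around a short spacer, and many of its target genes are known to answer to androgens as well. Several of the genes listed here act as brakes or messengers of glucocorticoid action: TSC22D3 (also called GILZ) and DUSP1 dampen inflammatory signalling, SGK1 is a kinase that promotes sodium transport and survival, and PER1 ties steroid signals to the circadian clock. RNA from whole cultures was measured, so a change in the number of cells that carry a transcript and a change of its level per cell cannot be told apart.

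Promoter windows ran from 250 bases before to 50 after a transcript start, from RefSeq on GRCh38.p14. Those used came from 8 of the 10 genes, all but ZBTB16 and CEBPD, 14 windows in all. They were searched on both strands for the half-site AGAACA, which reads TGTTCT on the other strand, and for the variant GGTACA, which reads TGTACC there. A full element was searched as AGAACA followed, after 3 bases of any kind, by TGTTCT, so each full element also holds the half-site. AGAACA was found in 3 windows, GGTACA in 1 and the full element in 0 of the 14. Over all 35116 RefSeq promoter windows of that length the shares were 14.8% for AGAACA, 5.49% for GGTACA and 0.00285% for the full element. The windows with matches are shown so that the letters can be read beside the response of each gene. Capitals mark the matches, each sequence runs 5′ to 3′ on the strand of the gene, and a match is a description of the letters and not a binding site.

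TSC22D3 (chrX:107717013-107717312, minus strand): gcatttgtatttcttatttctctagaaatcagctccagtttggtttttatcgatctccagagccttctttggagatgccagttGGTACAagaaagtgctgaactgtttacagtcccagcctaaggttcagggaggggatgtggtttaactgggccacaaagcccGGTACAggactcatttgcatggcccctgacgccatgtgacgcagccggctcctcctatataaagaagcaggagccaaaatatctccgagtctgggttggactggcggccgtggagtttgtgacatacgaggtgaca

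SGK1 (chr6:134177812-134178111, minus strand): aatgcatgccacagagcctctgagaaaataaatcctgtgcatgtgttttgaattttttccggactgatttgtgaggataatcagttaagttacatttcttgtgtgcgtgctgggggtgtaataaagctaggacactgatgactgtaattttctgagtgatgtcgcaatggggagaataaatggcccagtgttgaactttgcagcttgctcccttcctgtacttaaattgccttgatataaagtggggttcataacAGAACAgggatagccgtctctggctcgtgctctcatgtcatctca

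BCL6 (chr3:187736452-187736751, minus strand): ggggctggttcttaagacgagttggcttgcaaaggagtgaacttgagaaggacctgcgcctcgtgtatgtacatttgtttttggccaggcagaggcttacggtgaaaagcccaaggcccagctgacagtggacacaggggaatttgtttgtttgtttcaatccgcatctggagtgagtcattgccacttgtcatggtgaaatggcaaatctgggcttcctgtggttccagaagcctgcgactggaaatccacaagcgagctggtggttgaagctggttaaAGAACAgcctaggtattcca

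SERPINA3 (chr14:94612141-94612440, plus strand): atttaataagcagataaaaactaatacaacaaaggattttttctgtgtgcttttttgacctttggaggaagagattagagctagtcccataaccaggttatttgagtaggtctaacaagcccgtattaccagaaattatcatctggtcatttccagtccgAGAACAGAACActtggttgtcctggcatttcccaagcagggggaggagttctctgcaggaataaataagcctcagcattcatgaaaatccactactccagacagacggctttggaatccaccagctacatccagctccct

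The TSC22D3 window, 1 of 4 for that gene, held GGTACA 2 times. The SGK1 window, 1 of 3, held AGAACA 1 time near its transcript start, and the BCL6 window, 1 of 2, held it 1 time. The single SERPINA3 window held AGAACA 2 times, with the 2 matches sharing a base. The windows of PER1, KLF9, DUSP1 and CRISPLD2 held neither half-site.

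After 48 h of DHT, 3 of the 9 measured genes were higher than in vehicle: TSC22D3 by 1.67-fold, ZBTB16 by 1.77-fold and SGK1 by 1.8-fold. In vehicle ZBTB16 and SGK1 gave weak signals, below the array medians of 7.59 to 7.63 on the log2 scale, and each was read by 1 probe set. With DHT every ZBTB16 array stayed below those medians too, as did every SGK1 array except DHT 48 h replicate 2 (7.62). After 16 h TSC22D3 alone was called, at 1.49-fold, and after 4 h none was. No gene of the 9 was called lower at any time, where 0.0708%, 4.3% and 6.38% of all genes were at 4, 16 and 48 h. KLF9, DUSP1, CEBPD, BCL6, CRISPLD2 and SERPINA3 were not called in any comparison with vehicle. A call means an adjusted p below 0.05 in limma, a linear model of all 8 arrays with Benjamini-Hochberg adjustment over all 19775 genes. The ± values are that model's standard errors.

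The counts stand against the whole array as follows. At 4 h, 0 of 9 were called higher, where 0.106% of all genes were, and 2 of the 9 had an unadjusted p below 0.05, as did 7.84% of all genes. At 16 h, 1 of 9 was called higher against 2.55% of all genes. At 48 h, 3 of 9 were called higher against 3.13% of all genes. The listed genes were chosen with earlier results of these data known. For that reason, and with so few genes, these shares are descriptions and carry no test of their own.

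The size of the changes was small for most of the list. The median log2 change of the 9 genes was 0.20 at 4 h, 0.16 at 16 h and 0.13 at 48 h, against 0.00, 0.02 and 0.01 over all genes. All 9 changes were above 0 at each time, although the 3 comparisons share their vehicle arrays and so are not independent. That count depended on the choice of probe set: with the mean of a gene's probe sets CRISPLD2 was at -0.09, -0.24 and -0.20 at the 3 times, CEBPD at -0.0044 at 16 h and -0.11 at 48 h, and DUSP1 at -0.03 at 48 h. Both DHT arrays lay above both vehicle arrays for 6 of 9 genes at 4 h, 4 at 16 h and 7 at 48 h, where 19.4%, 25.9% and 25.8% of all genes did so. For 0 of 9 genes did both DHT arrays lie below both vehicle arrays at any of the 3 times, where 20.8%, 21.1% and 26.1% of all genes did. These counts too depended on the probe set. At 48 h both arrays lay below vehicle on another probe set of DUSP1, CRISPLD2, CEBPD and KLF9, and above it on others of TSC22D3, BCL6 and KLF9. The 7 at 48 h include narrow margins for CRISPLD2 (8.7156 against 8.7100 in vehicle) and SERPINA3 (7.8785 against 7.8743).

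**Figure D1:**
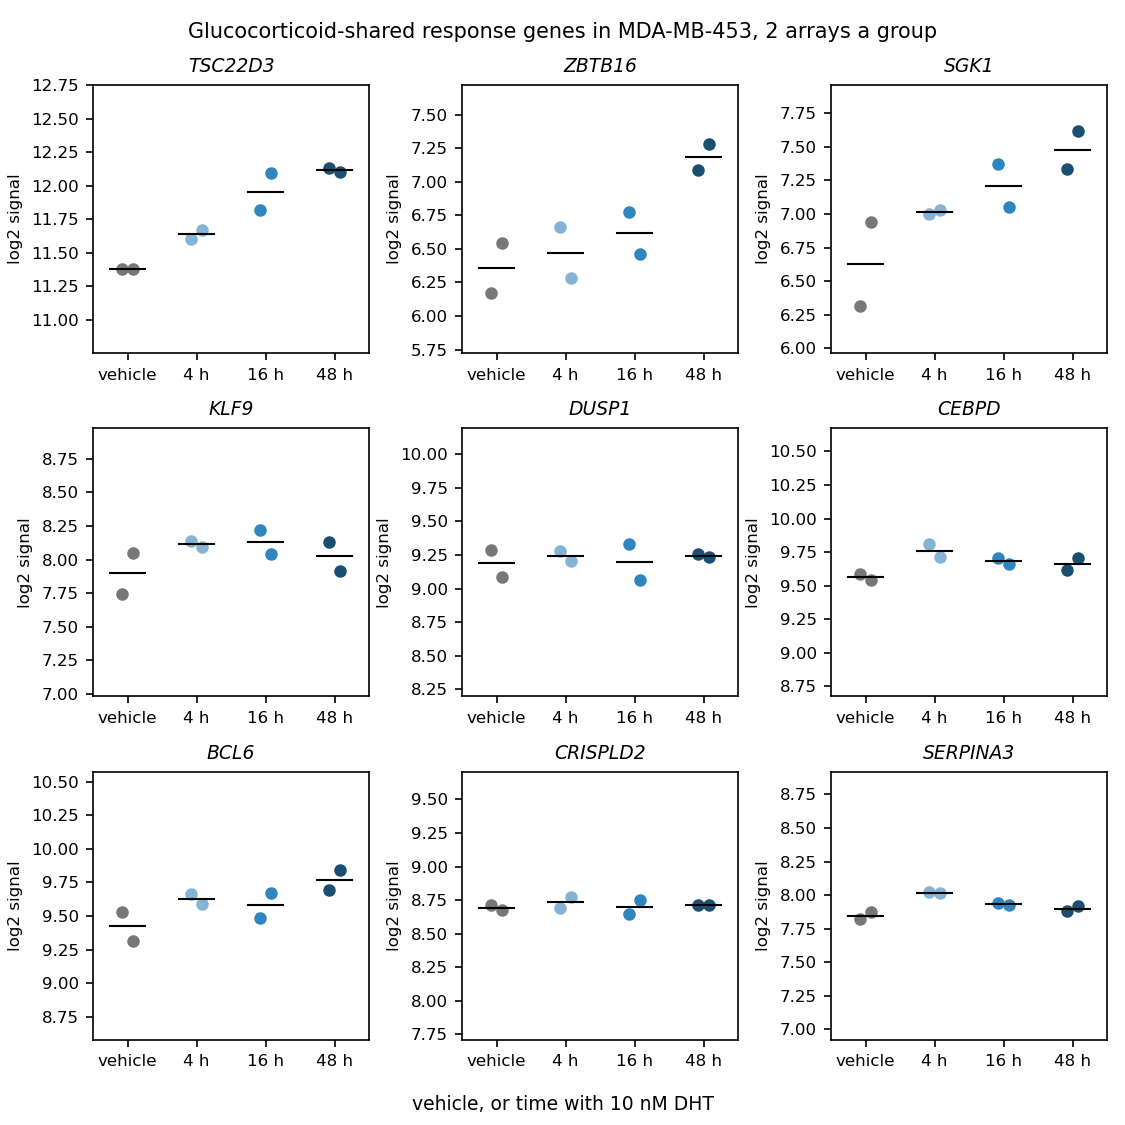
Log2 signal of the 9 measured genes on each array, with vehicle at the left and then 4, 16 and 48 h of 10 nM DHT; points are arrays, 2 a group, bars are group means, and each panel has its own axis of at least 2 log2 units. TSC22D3, ZBTB16 and SGK1 stand highest at 48 h, and the points of DUSP1 and CRISPLD2 overlap between groups or nearly do.

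TSC22D3 is a leucine zipper protein that binds and restrains inflammatory transcription factors. It had log2 signals of 11.38 and 11.38 on the vehicle arrays, 11.60 and 11.67 at 4 h, 11.82 and 12.09 at 16 h, and 12.13 and 12.10 at 48 h. No DHT array overlapped the vehicle arrays at any time, and the 2 vehicle arrays were nearly identical. The log2 change against vehicle was 0.26 ± 0.10 at 4 h (adjusted p = 0.584), 0.58 ± 0.10 at 16 h (adjusted p = 0.00671) and 0.74 ± 0.10 at 48 h (adjusted p = 0.000947). At 48 h it rose by 0.48 ± 0.10 over 4 h (adjusted p = 0.019), whereas the step of 0.32 between 4 and 16 h (adjusted p = 0.162) and that of 0.16 between 16 and 48 h (adjusted p = 0.664) were not called.

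The 48 h call of TSC22D3 was kept without each of the 8 arrays in turn. The 16 h call was lost without vehicle replicate 1, with a change of 0.58 and an adjusted p of 0.0544. The difference between 48 and 4 h was lost without any one of the 4 arrays compared: without DHT 4 h replicate 1 (0.45, adjusted p = 0.169), DHT 4 h replicate 2 (0.51, adjusted p = 0.0906), DHT 48 h replicate 1 (0.47, adjusted p = 0.128) and DHT 48 h replicate 2 (0.49, adjusted p = 0.0919). The step between 4 and 16 h was called without DHT 16 h replicate 1 (0.46, adjusted p = 0.0332). That leaves DHT 16 h replicate 2, which stands apart from the other 7 arrays, as the only 16 h array.

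TSC22D3 was read by 208763_s_at, and 2 further probe sets gave smaller changes. In a fit of all 54613 probe sets, 207001_x_at had changes of 0.23, 0.22 and 0.48 at 4, 16 and 48 h (adjusted p = 0.893, 0.517 and 0.117), and 235364_at had 0.16, 0.14 and 0.21 (adjusted p = 0.921, 0.676 and 0.493). Neither was called, and both pointed upward at each time. The gene has several transcript starts, and which transcripts each probe set reads was not tested. With 235364_at, the 1 probe set of the gene outside the kinds that can match several transcripts, as the level of the gene, neither the 16 h change (adjusted p = 0.631) nor the 48 h change (adjusted p = 0.398) was called. With the mean of its probe sets the change was 0.31 at 16 h (adjusted p = 0.062) and 0.48 at 48 h (adjusted p = 0.0071). The difference between 48 and 4 h was not called with the mean of probe sets (0.26, adjusted p = 0.135), with 235364_at (0.054, adjusted p = 0.925) or when adjusted over all probe sets (adjusted p = 0.0657).

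ZBTB16 (also called PLZF) is a zinc finger transcriptional repressor known in other tissues as a gene induced by progestins, glucocorticoids and androgens. Its log2 signals were 6.17 and 6.55 in vehicle, 6.66 and 6.28 at 4 h, 6.77 and 6.46 at 16 h, and 7.09 and 7.28 at 48 h. The 48 h arrays stood above all 6 others, while the earlier DHT arrays overlapped vehicle. The change was 0.11 ± 0.16 at 4 h (95% interval -0.24 to 0.47), 0.26 ± 0.16 at 16 h (-0.09 to 0.61) and 0.83 ± 0.16 at 48 h (adjusted p = 0.0072).

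At 48 h ZBTB16 also rose by 0.71 ± 0.16 over 4 h (adjusted p = 0.0228), and its step of 0.57 ± 0.16 between 16 and 48 h was not called (adjusted p = 0.18). Its calls depended on single arrays. The change against vehicle at 48 h was lost without vehicle replicate 1 (0.64, adjusted p = 0.0879) and without DHT 48 h replicate 2 (0.73, adjusted p = 0.0696). The difference between 48 and 4 h was lost without DHT 4 h replicate 2 (0.53, adjusted p = 0.212), DHT 48 h replicate 1 (0.81, adjusted p = 0.0816) or DHT 48 h replicate 2 (0.62, adjusted p = 0.171), and it missed the threshold when adjusted over all probe sets (adjusted p = 0.0882). Only 205883_at reads this gene alone, so no further probe set could be set beside it.

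SGK1, the serum and glucocorticoid regulated kinase, had log2 signals of 6.31 and 6.94 in vehicle, 7.00 and 7.03 at 4 h, 7.37 and 7.05 at 16 h, and 7.33 and 7.62 at 48 h. Every DHT array lay above both vehicle arrays, and the vehicle arrays differed from each other more than those of any DHT group. The change was 0.39 ± 0.18 at 4 h (adjusted p = 0.656), 0.59 ± 0.18 at 16 h (adjusted p = 0.0841) and 0.85 ± 0.18 at 48 h (adjusted p = 0.0121). None of its 3 differences between times was called, the largest being 0.46 ± 0.18 between 4 and 48 h (adjusted p = 0.205). In a fit of the arrays of those 2 groups alone that difference became a call (adjusted p = 0.0281).

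Without vehicle replicate 1, the array with the lowest SGK1 signal, the 48 h change was 0.54 and lost its call (adjusted p = 0.105), and without DHT 48 h replicate 2 it was 0.71 (adjusted p = 0.105). Without vehicle replicate 2 the 16 h change was 0.90 and became a call (adjusted p = 0.0126), as it did at 0.64 when the arrays were shifted to equal housekeeping signal (adjusted p = 0.0479). Adjusted over all probe sets, the 48 h change of SGK1 missed the threshold (adjusted p = 0.0524).

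A moderated F test, which asks in 1 test per gene whether any DHT group differed from vehicle, called the same 3 genes: TSC22D3 (adjusted p = 0.00317), ZBTB16 (adjusted p = 0.0232) and SGK1 (adjusted p = 0.0496). It called 8.9% of all genes. Between times, 0 of 9 genes were called for 16 h against 4 h (3.05% of all genes), and 1 of 9 had an unadjusted p below 0.05, as did 14.3% of all genes. For 48 h against 16 h, 0 of 9 were called (0.829% of all genes), and 1 of 9 had an unadjusted p below 0.05, as did 10.7% of all genes. For 48 h against 4 h, 2 of 9 were called, both higher, where 2.41% of all genes were called higher.

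**Figure D2:**
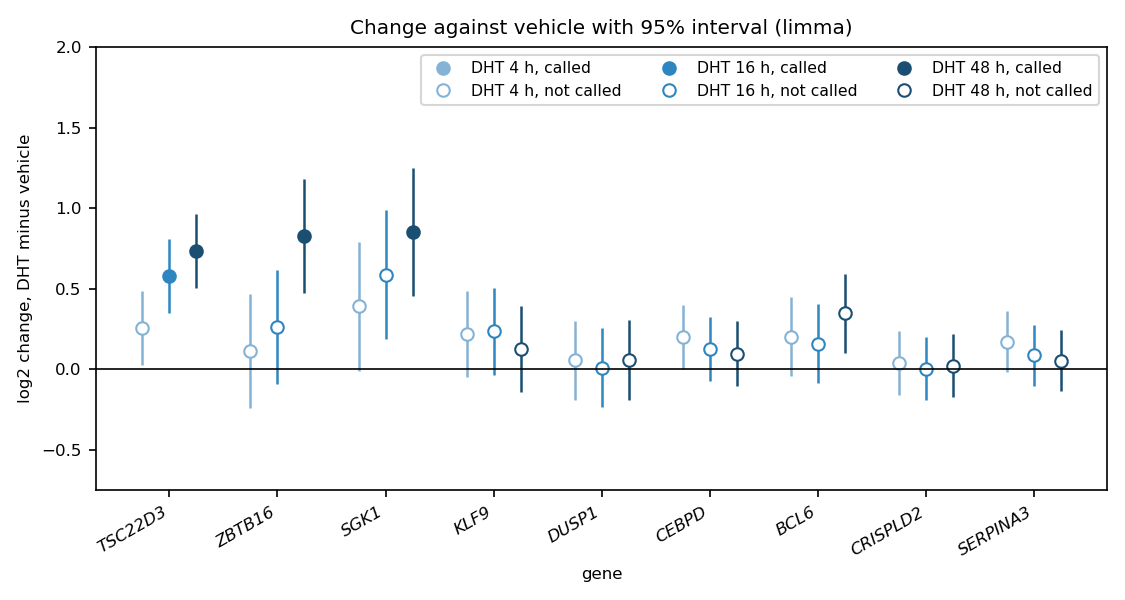
Log2 change against vehicle of the 9 genes at 4, 16 and 48 h of DHT (light to dark), with 95% intervals from limma; filled points passed an adjusted p of 0.05 and open points did not. The filled points are TSC22D3 at 16 and 48 h and ZBTB16 and SGK1 at 48 h.

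BCL6, a zinc finger repressor best known from germinal centre B cells, came nearest to a call among the other genes. It had 9.53 and 9.31 in vehicle, 9.66 and 9.59 at 4 h, 9.49 and 9.67 at 16 h, and 9.69 and 9.84 at 48 h. Both 48 h arrays lay above both vehicle arrays, and the 16 h arrays overlapped them. The 48 h change was 0.35 ± 0.11 (95% interval 0.10 to 0.59, adjusted p = 0.0801). It became a call when the arrays were shifted to equal housekeeping signal (0.38, adjusted p = 0.0458) and when quantile normalisation was repeated (0.40, adjusted p = 0.029). ACTB, among the 9 housekeeping genes behind that shift, was itself called lower at 48 h by limma (-0.32, adjusted p = 0.0379). Adjusted over all probe sets ACTB lost that call (adjusted p = 0.0838), and its part in the shifted BCL6 value was not tested. The other BCL6 probe sets, 228758_at and 215990_s_at, had 48 h changes of 0.25 and 0.22, neither called (adjusted p = 0.329 and 0.492).

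KLF9 and CEBPD are transcription factors that respond to glucocorticoids in many cell types. KLF9 had 7.74 and 8.05 in vehicle, 8.14 and 8.10 at 4 h, 8.22 and 8.05 at 16 h, and 8.13 and 7.91 at 48 h. Its arrays were above vehicle at 4 h and overlapped it afterwards, and its changes were 0.22 (95% interval -0.05 to 0.49), 0.23 (-0.03 to 0.50) and 0.13 (-0.14 to 0.39). Its other 4 probe sets were not called at any time and differed in sign. On 203542_s_at the changes were 0.18, 0.33 and 0.19 (adjusted p = 0.891, 0.153 and 0.422), with every DHT array above both vehicle arrays. On 230636_s_at they were -0.03, -0.06 and -0.28 (adjusted p = 0.989, 0.911 and 0.457), with 6.45 and 6.31 at 48 h of DHT, both below the 6.73 and 6.59 of vehicle. The remaining KLF9 probe sets, 228474_s_at and 203543_s_at, had changes between -0.07 and 0.12.

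CEBPD had 9.58 and 9.54 in vehicle, 9.81 and 9.71 at 4 h, 9.71 and 9.67 at 16 h, and 9.62 and 9.70 at 48 h. No DHT array of CEBPD overlapped vehicle, with the highest pair at 4 h, yet the changes of 0.20 (adjusted p = 0.637), 0.12 (adjusted p = 0.509) and 0.10 (adjusted p = 0.589) were not called. A second CEBPD probe set, 213006_at, had changes of -0.12, -0.13 and -0.32, none called (adjusted p = 0.938, 0.676 and 0.244). The probe sets of this gene thus differ in sign, but 213006_at was dim. Its log2 signals were 4.74 to 5.16, below the level of 6 used to filter dim genes.

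DUSP1, a phosphatase that switches off MAP kinases, was nearly level on its chosen probe set. It had 9.29 and 9.09 in vehicle, 9.28 and 9.20 at 4 h, 9.33 and 9.06 at 16 h, and 9.26 and 9.23 at 48 h. The groups overlapped at every time, and the changes were 0.05 (95% interval -0.19 to 0.30), 0.01 (-0.24 to 0.25) and 0.06 (-0.19 to 0.30).

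A second DUSP1 probe set, 201041_s_at, gave another result at 48 h. It had 8.39 and 8.28 at 48 h of DHT, against 8.86 and 8.72 in vehicle, and fell by 0.46 on the log2 scale (adjusted p = 0.0469 over all probe sets). Its changes were -0.02 at 4 h and -0.00 at 16 h, and the last probe set, 201044_x_at, had 0.31 at 48 h (adjusted p = 0.481). The 3 probe sets of DUSP1 gave a change near 0, a call lower and an uncalled value above 0 at the same time point.

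CRISPLD2 and SERPINA3 encode secreted proteins, and SERPINA3 is a protease inhibitor of the acute phase response. CRISPLD2 had 8.71 and 8.68 in vehicle, 8.69 and 8.77 at 4 h, 8.65 and 8.75 at 16 h, and 8.72 and 8.72 at 48 h. Its changes on 1555809_at were 0.04, 0.00 and 0.02, with a 95% interval at 48 h of -0.18 to 0.22. On 221541_at they were -0.22, -0.47 and -0.42 (adjusted p = 0.887, 0.0644 and 0.0789), just short of a call lower at 16 and 48 h. SERPINA3 had 7.82 and 7.87 in vehicle, 8.02 and 8.02 at 4 h, 7.94 and 7.93 at 16 h, and 7.88 and 7.92 at 48 h. Every DHT array of SERPINA3 lay above vehicle, highest at 4 h, but the changes of 0.17 (95% interval -0.02 to 0.36), 0.09 (-0.10 to 0.28) and 0.05 (-0.14 to 0.24) were not called.

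PER1, a repressor in the core circadian clock, had no probe set of its own and stands outside the counts. Of the 4 probe sets annotated to both PER1 and MIR6883, a microRNA gene, the brightest was 36829_at. It had 9.85 and 9.93 in vehicle, 10.05 and 10.05 at 4 h, 10.04 and 9.99 at 16 h, and 10.05 and 9.97 at 48 h. Every DHT array lay above both vehicle arrays, and the changes of 0.16, 0.13 and 0.12 were not called (adjusted p = 0.891, 0.563 and 0.565 over all probe sets). The widest change at 4 h was on 202861_at, with 8.26 and 8.36 in vehicle, 8.71 and 8.67 at 4 h, 8.55 and 8.57 at 16 h, and 8.51 and 8.44 at 48 h. There too every DHT array lay above vehicle, and the changes of 0.38, 0.25 and 0.17 were not called (adjusted p = 0.542, 0.22 and 0.416). The other 2 probe sets had changes of 0.20, 0.09 and -0.02 on 244677_at and of 0.17, 0.18 and -0.03 on 242832_at, none called.

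Among the 9 measured genes 6 had more than 1 probe set, 12 of which were not used for the level of a gene. Of these 12, 0 were called at 4 h, 0 at 16 h and 1 at 48 h, the DUSP1 probe set above, where 0.0183%, 2.51% and 3.97% of all probe sets were called. At an unadjusted p below 0.05 the counts were 0, 3 and 4 of 12, where 5.71%, 15.3% and 16.2% of all probe sets had such a p. No second probe set of TSC22D3 or of any other gene on the list was called higher.

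**Figure D3:**
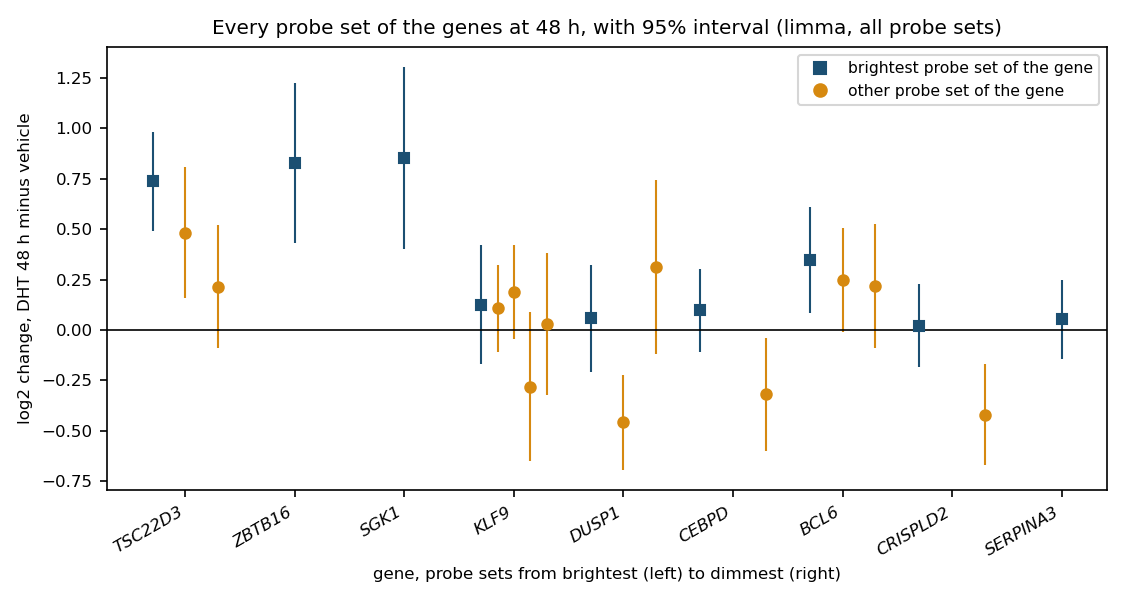
Log2 change at 48 h of DHT against vehicle for all 21 probe sets of the 9 genes, with 95% intervals from the fit of all probe sets; squares are the probe set used for the gene and circles the others. The lowest circles of DUSP1, CRISPLD2, CEBPD and KLF9, at -0.46, -0.42, -0.32 and -0.28, lie below 0 while the square of the same gene lies above it.

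The genes whose pattern over the 8 arrays was most like that of TSC22D3, by Pearson correlation among the 1759 other genes called by the F test, were TMEM42 (r = 0.988), CD320 (0.977), CORO2A (0.973), WWC3 (0.972) and ARHGEF37 (0.972). For ZBTB16 they were KDM3A (r = 0.954), GIRGL (0.948), PIAS1 (0.947), NIT2 (0.946) and SLC37A4 (0.936). The points share arrays and group means, and the candidates were selected for changing over the same groups. All 10 were called higher at 48 h, by log2 changes of 0.47 to 1.25. That follows largely from picking them for likeness to genes that stood highest at 48 h.

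Other textbook glucocorticoid targets show where the listed genes stand among such genes in these cells. All 40 of a list of 40 were measured, of which 2 were called higher and 0 lower at 4 h (6 with an unadjusted p below 0.05). At 16 h, 3 were higher and 5 lower, and at 48 h, 5 were higher and 6 lower. Of all genes 0.106%, 2.55% and 3.13% were called higher at 4, 16 and 48 h, and 0.0708%, 4.3% and 6.38% lower. The median change of the 40 targets was 0.02, 0.04 and 0.03 at the 3 times. FKBP5, a chaperone of steroid receptors and a classical target of glucocorticoids and androgens, rose 1.97-fold at 4 h, 5.48-fold at 16 h and 10.1-fold at 48 h, and NFKBIA, the inhibitor of NF-kappaB, rose 2.15-, 3.41- and 3.18-fold. On a probe set outside the kinds that can match several transcripts, NFKBIA had smaller log2 changes of 0.54 (adjusted p = 0.124, not called), 0.82 and 0.75, against 1.11, 1.77 and 1.67. With the mean of its probe sets FKBP5 was not called at 4 h (adjusted p = 0.326).

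At 48 h, on the probe sets used, SGK1, ZBTB16 and TSC22D3 ranked behind FKBP5 and NFKBIA and ahead of the remaining called targets DDIT4 (log2 change 0.72), FOXO3 (0.66) and SAP30 (0.51), and no difference between genes was tested. On probe sets outside the kinds that can match several transcripts NFKBIA (0.75) came after SGK1 (0.85) and ZBTB16 (0.83), and TSC22D3 was at 0.21. The targets called lower at 48 h were SPRY4 (-1.07), ELL2 (-1.05), ERRFI1 (-0.80), STOM (-0.62), KLF6 (-0.52) and PIK3R1 (-0.38). No listed gene was called lower on its chosen probe set, where 6.38% of all genes were at 48 h. At 16 h FOXO3 was higher (0.51), and ERRFI1 (-0.85), ELL2 (-0.74), KLF6 (-0.70), STOM (-0.67) and PIK3R1 (-0.58) were lower. DDIT4, FOXO3, SAP30, STOM, KLF6 and PIK3R1 were named after their values were seen. On probe sets outside the kinds that can match several transcripts, SAP30 (-0.07 at 48 h) and PIK3R1 (0.25 at 16 h and 0.04 at 48 h) had the opposite sign, and STOM was not called (adjusted p = 0.166 at 16 h and 0.104 at 48 h). With the mean of probe sets, PIK3R1 (-0.12 at 16 h and -0.0741 at 48 h) and ELL2 at 16 h (-0.38, adjusted p = 0.053) lost their calls. Adjusted over all probe sets, FOXO3 and ELL2 at 16 h (adjusted p = 0.0519 and 0.0505) and KLF6 and PIK3R1 at 48 h (adjusted p = 0.0955 and 0.107) lost theirs.

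Among these targets the calls of NFKBIA, ERRFI1, STOM, SPRY4 and DDIT4 were kept without each array in turn, as were the 48 h calls of FKBP5, FOXO3 and ELL2. At 4 h FKBP5 lost its call without DHT 4 h replicate 1 (adjusted p = 0.064) or 2 (adjusted p = 0.0807). At 16 h FOXO3 lost it without vehicle replicate 2 (adjusted p = 0.0972) or DHT 16 h replicate 2 (adjusted p = 0.0772), ELL2 without vehicle replicate 1 (adjusted p = 0.121) or DHT 16 h replicate 1 (adjusted p = 0.0529), and KLF6 and PIK3R1 without vehicle replicate 1 (adjusted p = 0.106 and 0.0618). At 48 h SAP30 lost it without vehicle replicate 2 (adjusted p = 0.0597) or DHT 48 h replicate 2 (adjusted p = 0.0685). KLF6 lost it at 48 h without vehicle replicate 1, either 4 h array or either 48 h array (adjusted p = 0.273, 0.0507, 0.115 and 0.165), and PIK3R1 without any vehicle, 4 h or 48 h array (adjusted p = 0.0721 to 0.219).

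**Figure D4:**
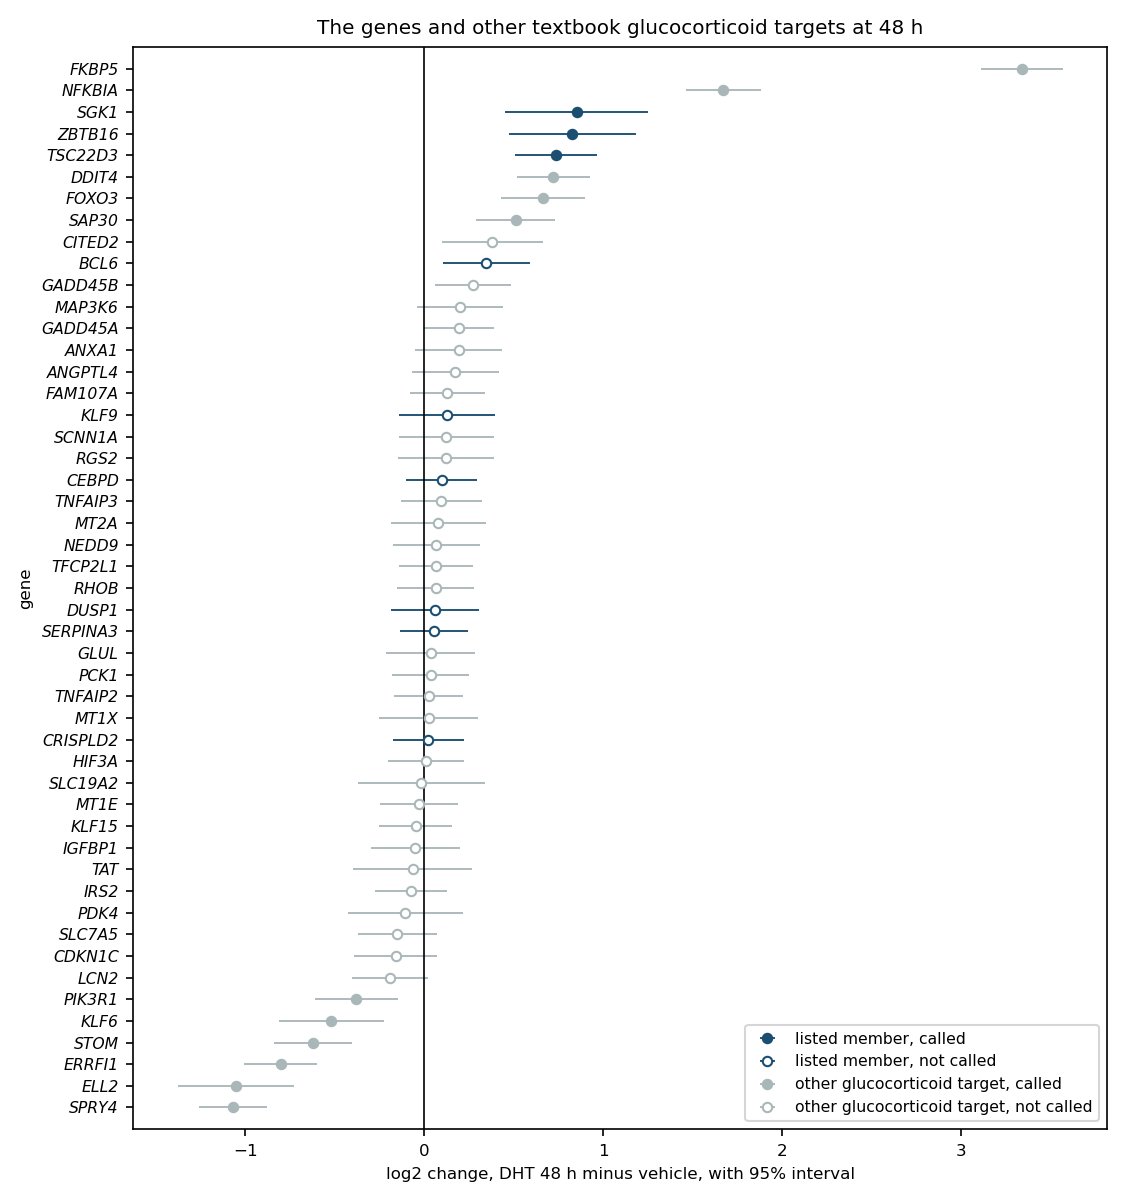
Log2 change at 48 h of DHT against vehicle, with 95% intervals from limma, for the 9 genes (dark) and 40 other textbook glucocorticoid targets (grey), sorted by change; filled points were called. On the probe sets used, SGK1, ZBTB16 and TSC22D3 come directly after FKBP5 and NFKBIA, and the other 6 dark points lie between 0.02 and 0.35.

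NR3C1, the glucocorticoid receptor gene, had 11.50 and 11.28 in vehicle, 11.24 and 11.25 at 4 h, 11.10 and 11.20 at 16 h, and 10.76 and 10.85 at 48 h. It was lower at 48 h by a log2 change of -0.59 ± 0.10 (adjusted p = 0.00348), while NR3C2, PGR and ESR1 were not called at any time. That call was kept without each array in turn, but not with a probe set outside the kinds that can match several transcripts (-0.51, adjusted p = 0.415).

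HSD11B2, the enzyme that converts cortisol to inactive cortisone, rose by log2 changes of 0.75 (adjusted p = 0.0171), 2.17 (adjusted p = 3.87e-07) and 3.46 (adjusted p = 4.78e-09). Its 4 h call was lost without vehicle replicate 1 (adjusted p = 0.213), without either 4 h array (adjusted p = 0.106 and 0.324) and without either 48 h array (adjusted p = 0.0529) and when adjusted over all probe sets (adjusted p = 0.169), and its later calls were kept without each array. Of the 9 measured genes that set steroid or receptor availability, 3 were higher at 16 h and at 48 h, HSD11B2, the co-regulator NRIP1 (0.77 and 0.65) and the coactivator NCOA1 (0.54 and 0.51). The shares of all genes called higher were 2.55% at 16 h and 3.13% at 48 h, and 6.38% were called lower at 48 h. The coactivator NCOA2 was lower at 48 h (-0.54, adjusted p = 0.0433), a call lost without either vehicle array (adjusted p = 0.287 and 0.0632), either 4 h array (adjusted p = 0.0722) and DHT 48 h replicate 1 (adjusted p = 0.364), and under 5 of the 9 other settings (adjusted p = 0.0522 to 0.397).

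Of 9 measured clock genes, the partners of PER1, none was called higher, where 2.55% of all genes were at 16 h and 3.13% at 48 h. The shares of all genes called lower were 4.3% and 6.38%. PER2, which acts with PER1, was lower at 16 h (-0.57) and 48 h (-1.21), and the repressor CRY1 (-1.15) and the factor TEF (-0.38) were lower at 48 h. PER2 lost its 16 h call without vehicle replicate 1 (adjusted p = 0.135) or DHT 16 h replicate 1 (adjusted p = 0.0636), and TEF lost its call without any one vehicle, 4 h or 48 h array (adjusted p = 0.0665 to 0.243). Adjusted over all probe sets the PER2 call at 16 h was lost (adjusted p = 0.053), and TEF lost its call under 7 of the 9 other settings (highest adjusted p = 0.872). The 4 probe sets shared by PER1 and MIR6883 were not called, so no direction can be set beside that of PER2 and CRY1.

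Of 19 measured relatives of the listed genes, 2 were higher and 1 lower at 16 h, and 1 was higher and 4 lower at 48 h. The shares of all genes were 2.55% higher and 4.3% lower at 16 h, and 3.13% higher and 6.38% lower at 48 h. KLF4, a relative of KLF9, rose by 0.86 at 16 h and 1.29 at 48 h, and KLF10 by 0.64 at 16 h. DUSP6, a relative of DUSP1, was lower at 16 h (-0.50) and 48 h (-1.72), DUSP4 at 48 h (-0.62), TSC22D2, a relative of TSC22D3, at 48 h (-0.78) and CEBPB, a relative of CEBPD, at 48 h (-0.48). CEBPB was named after its values were seen, and TSC22D2 had the opposite sign at 48 h (0.19) on a probe set outside the kinds that can match several transcripts and lost its call with the mean of probe sets (-0.21, adjusted p = 0.157). Adjusted over all probe sets, KLF10 and DUSP6 lost their 16 h calls (adjusted p = 0.0936 and 0.0591). KLF10 also lost its call without either vehicle array (adjusted p = 0.181 and 0.0781) or DHT 16 h replicate 2 (adjusted p = 0.171), DUSP6 at 16 h without either vehicle array (adjusted p = 0.115 and 0.0677) or DHT 16 h replicate 1 (adjusted p = 0.0719), and CEBPB without vehicle replicate 2 (adjusted p = 0.0667) or DHT 48 h replicate 1 (adjusted p = 0.0981).

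**Figure D5:**
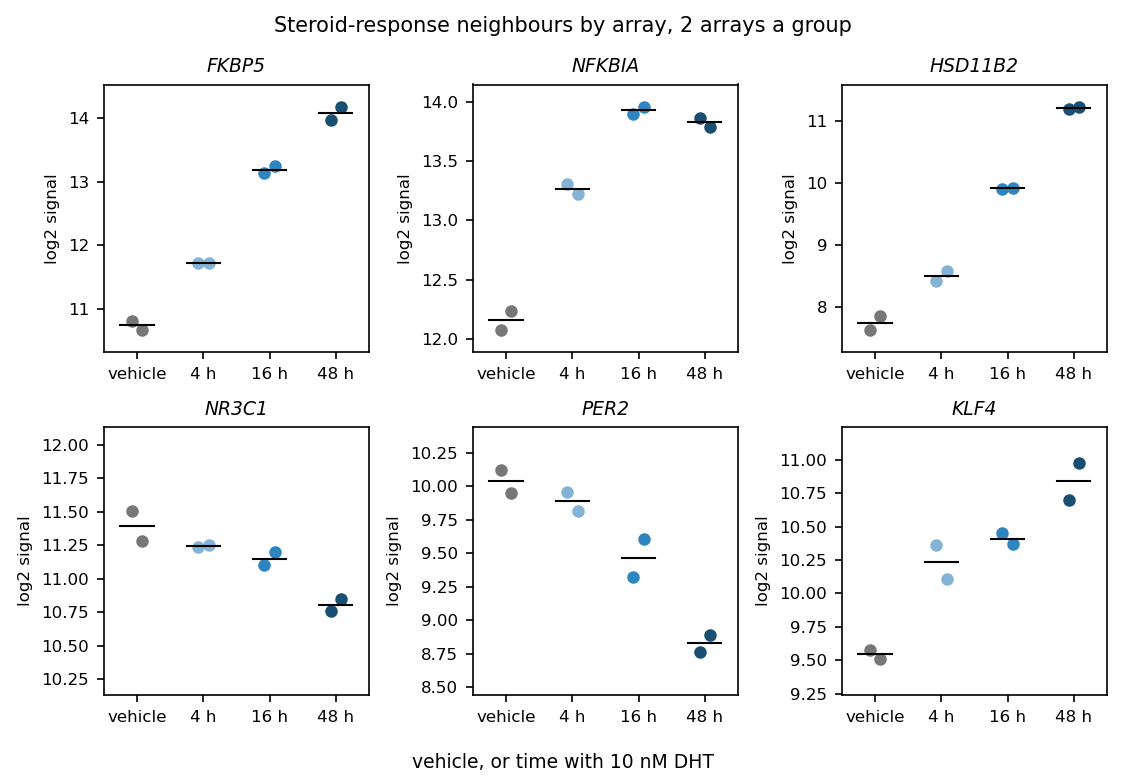
Log2 signal on each array of FKBP5, NFKBIA, HSD11B2, NR3C1, PER2 and KLF4, with vehicle at the left and then 4, 16 and 48 h of DHT; points are arrays and bars are group means. FKBP5 and HSD11B2 climb at every step, NFKBIA levels off after 16 h, and NR3C1 and PER2 are lowest at 48 h.

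The arrays were alike in scale, with median log2 signals of 7.59 to 7.63 and correlations of 0.995 to 0.997 between the arrays of a group. DHT 16 h replicate 2 lay away from the other arrays on principal component 2 (16.1% of the variance, -23.1 against -0.51 to 10.8) and had the largest difference between 3′ and 5′ ACTB signal (1.52 against 0.203 to 0.945 on the others). Without that array the TSC22D3 change at 16 h was 0.44, against 0.58 with both 16 h arrays. What sets that array apart was not tested. The luminal markers, 8 of 9 measured, summed to signals of 79907 and 82561 in vehicle, 71275 and 73278 at 4 h, 75628 and 82082 at 16 h, and 70289 and 71549 at 48 h, with KRT19 higher at 48 h (0.68) and GATA3 (-0.85), FOXA1 (-0.72), ERBB2 (-0.65) and CDH1 (-0.44) lower. The CDH1 call was lost without any one vehicle, 4 h or 48 h array (adjusted p = 0.0604 to 0.318), and that of ERBB2 with the mean of its probe sets (adjusted p = 0.434). Of 6 basal markers 4 were measured, and they summed to signals of 1318 and 1412 in vehicle, 1115 and 1117 at 4 h, 1288 and 1302 at 16 h, and 1187 and 1310 at 48 h. KRT5 was higher at 48 h (0.51), and ACTA2 was lower at 16 h (-0.73) and 48 h (-0.53). The ACTA2 calls were lost with the mean of its probe sets (adjusted p = 0.238 and 0.277), the one at 48 h also without DHT 48 h replicate 1 (adjusted p = 0.0503), and that of KRT5 without vehicle replicate 1 or DHT 48 h replicate 1 (adjusted p = 0.0617 and 0.076). None of 6 mesenchymal markers and none of 5 immune and endothelial markers was called by limma at any time (0 and at most 1 with an unadjusted p below 0.05). Of all genes 2.55% and 3.13% were called higher at 16 and 48 h, and 4.3% and 6.38% lower. The part of the luminal, basal, mesenchymal, immune and endothelial markers in the values of the listed genes was not tested.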

How the data were processed

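Gene expression was measured on 8 HG-U133 Plus 2.0 arrays, vehicle and DHT for 4, 16 and 48 h with 2 each. The deposited values are log2 signals made by RMA, per the submitters' processing notes, and the version was not given in the sources used here. They were used as deposited. Of 54675 probe sets, 62 controls were left out, 41091 had 1 symbol, 1801 several and 11721 none here. Each gene was read by its probe set of 1 symbol with the highest mean over the 8 arrays, and 9 of the listed genes matched RefSeq by gene ID. No columns of other samples were present.

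A model of 4 group means was fitted with limma 3.58.1 in R 4.3.3 (4 residual and 7.21 prior degrees of freedom), two-sided, with Benjamini-Hochberg adjustment over all genes and calls at an adjusted p below 0.05. The procedure was tested on simulated data. No exact permutation test was run, since its smallest p with 2 against 2 arrays is 0.333. The number of arrays limits the precision. The listed genes and the lists beside them were chosen with earlier results of these data known. Besides the listed genes, the text names the steroid receptors, FKBP5, NFKBIA, up to 4 called genes with the largest changes of each list and time, and, for the 2 listed genes with the largest F, the 5 most alike genes called by the F test. Marker genes of the cell type checks are named at 48 h, and ACTA2, after its values were seen, at 16 h too. Alternatives changed the probe set rule, the features adjusted over, a filter on dim genes (mean log2 signal of at least 6), the scaling, the prior, the arrays in the fit and the replicate term, and left out each array in turn. Promoter sequences are RefSeq's on GRCh38.p14.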

Additional observations from a re-analysis of the deposited data

Results flagged for a closer look

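Some of the listed genes and of the genes of the lists beside them differed between times of DHT by limma's test of the difference itself, with an adjusted p below 0.05. From the lists beside them only genes picked for naming are given, and other called genes of those lists are left out. Of all 19775 genes, 254 were called higher and 350 lower for 16 h against 4 h. The counts were 69 and 95 for 48 h against 16 h, and 477 and 736 for 48 h against 4 h. Among the listed genes, TSC22D3 and ZBTB16 were higher at 48 h than at 4 h, by log2 changes of 0.48 and 0.71. None of the listed genes differed between 16 h and 4 h or between 48 h and 16 h.

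Among the genes picked for naming, those higher at 16 h than at 4 h were FKBP5 (1.47), NFKBIA (0.66), FOXO3 (0.49), HSD11B2 (1.41), NRIP1 (0.74), KLF10 (0.94), DUSP4 (0.60), KRT19 (0.63) and SPDEF (0.52). ERRFI1 (-0.92), STOM (-0.74) and ACTA2 (-0.53) were lower. At 48 h relative to 16 h, FKBP5 (0.88), DDIT4 (0.95) and HSD11B2 (1.29) were higher. SPRY4 (-1.10), PER2 (-0.64), DUSP4 (-0.69), DUSP6 (-1.22), FOXA1 (-0.53) and GATA3 (-0.53) were lower.

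At 48 h relative to 4 h, FKBP5 (2.36), NFKBIA (0.56), DDIT4 (0.95), SAP30 (0.49), FOXO3 (0.65), HSD11B2 (2.71), NRIP1 (0.62), KLF4 (0.60), KLF10 (0.63), KRT19 (0.73), SPDEF (0.40) and KRT5 (0.62) were higher. NR3C1 (-0.44), ERRFI1 (-0.87), ELL2 (-0.87), STOM (-0.69), SPRY4 (-1.01), PER2 (-1.06), CRY1 (-0.81), TSC22D2 (-0.66), DUSP6 (-1.11), CEBPB (-0.45), GATA3 (-0.61) and ERBB2 (-0.53) were lower. Groups of 2 arrays allow no check for a single array far from the rest of its group.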

How the results depend on the processing

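The 48 h calls of the listed genes numbered 3, and 2 to 4 under the 9 other settings, with 1 to 3 without 1 array. At 4 h 0 were called under each setting run. At 16 h the count was 1, but 0 with the mean of a gene's probe sets, 0 with probe sets outside the _s_at and _x_at kinds, 2 after a shift to equal housekeeping signal, and 0 to 2 without 1 array. For 48 h against 4 h it was 2, but 1 with the mean of probe sets, 1 outside those kinds, 0 when adjusted over all probe sets, 3 with the arrays of the 2 groups alone (SGK1 added), and 0 to 2 without 1 array. For 16 h against 4 h it was 0 to 1 without 1 array. Any change over the course was called for 3, but for 1 outside those kinds, 1 over all probe sets, and 1 to 3 without 1 array.

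Over all genes, limma called 35 at 4 h, 1354 at 16 h, 1881 at 48 h, 604 for 16 h against 4 h, 164 for 48 h against 16 h, 1213 for 48 h against 4 h and 1760 for any change. Outside the _s_at and _x_at kinds, where fewer genes were tested, the counts were 18 at 4 h, 894 at 16 h, 353 for 16 h against 4 h, 770 for 48 h against 4 h and 1139 for any change. Adjusted over all probe sets they were 10 at 4 h and 92 for 48 h against 16 h. With trend and robust priors 67 were called at 4 h. With the arrays of the 2 groups alone, 798 were called at 16 h, 302 for 16 h against 4 h and 63 for 48 h against 16 h. Without 1 array the counts were 5 to 60 at 4 h, 517 to 1654 at 16 h, 834 to 2211 at 48 h, 171 to 1107 for 16 h against 4 h, 37 to 644 for 48 h against 16 h, 490 to 1494 for 48 h against 4 h and 1034 to 2495 for any change.

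Signs turned with the mean of probe sets for CRISPLD2 (-0.0926, -0.24 and -0.20 at 4, 16 and 48 h), CEBPD (-0.0044 at 16 h and -0.11 at 48 h) and DUSP1 (-0.0295 at 48 h). They turned outside the _s_at and _x_at kinds for CEBPD (-0.12, -0.13 and -0.32), TSC22D3 between 16 and 4 h (-0.0161), TSC22D2 (0.19 at 48 h), SAP30 (-0.0725 at 48 h) and PIK3R1 (0.25 at 16 h and 0.0352 at 48 h). The turned CEBPD values rest on 213006_at, a dim probe set with a mean log2 signal of 4.98. KLF9 and DUSP1 have no probe set outside those kinds. Without 1 array the change ranged from -0.0745 to 0.30 for ZBTB16 at 4 h, -0.0412 to 0.34 for ZBTB16 between 16 and 4 h, -0.027 to 0.28 for KLF9 at 48 h, -0.0448 to 0.15, -0.13 to 0.14 and -0.0414 to 0.16 for DUSP1 at 4, 16 and 48 h, and -0.00032 to 0.0765 and -0.0489 to 0.056 for CRISPLD2 at 4 and 16 h. The cause of these differences was not tested.

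Genes outside the list entered the next counts only where limma's main fit called them, so they could lose a call but not gain one. Of the values of single genes, 722 kept sign and call under the other settings, 60 lost a call with the same sign, 4 gained one and 14 turned sign, 4 of which lost a call. Without 1 array 628 kept both, 86 lost a call, 2 gained one and 12 that were not calls turned sign. With the arrays of the 2 groups alone, FOXO3 and PER2 at 16 h and HSD11B2 at 4 h lost their calls (adjusted p = 0.0596, 0.0521 and 0.0565). With quantile normalisation repeated, KLF6, PIK3R1 and CDH1 lost theirs at 48 h (adjusted p = 0.0517, 0.0615 and 0.0705). PIK3R1 also lost it after the housekeeping shift (adjusted p = 0.07) and with the replicate block (adjusted p = 0.0561), and CDH1 with the mean of probe sets (adjusted p = 0.0533) and over all probe sets (adjusted p = 0.12). The replicate numbers pair no cultures by the labels, and the replicate differences of the groups correlated at -0.24 to 0.20 over the 6 pairs of groups. With the replicate block the listed genes had 0, 1 and 3 calls at 4, 16 and 48 h and 2 for any change, and 25, 1261 and 1729 of all genes were called at the 3 times. The number of arrays, 2 a group, limits all of these values.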
